A study of Mus musculus with 6 samples.

Results

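Genes of cholesterol and fatty acid synthesis, of their control by SREBP factors and of LXR-driven sterol export were examined in mouse fetal liver haematopoietic stem cells (HSCs). The 39 genes were taken by symbol from a named list, and all 39 were rows of the deposited count table, which holds 23951 genes. RNA was sequenced from 3 wild type libraries (WT, labelled RISP wild type) and 3 knockout libraries (KO, labelled RISP knockout), all of the C57BL/6 strain. RISP, the product of Uqcrfs1, is the Rieske iron-sulfur subunit of respiratory complex III. Embryo age, the way the gene was deleted and the cells in which it was deleted are not stated in the labels. Nor do they tie each library to its own embryo, and the p-values therefore measure no more than library-to-library spread.

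Cholesterol is made from acetyl-CoA through mevalonate, isoprenoid diphosphates and squalene, and the isoprenoids also feed ubiquinone and protein prenylation. When membrane sterol is low, SCAP escorts SREBP precursors to the Golgi, where they are cleaved and released to switch on sterol and fatty acid genes, and INSIG proteins hold SCAP back when sterol is high. LXR nuclear receptors sense oxysterols and turn on export pumps and MYLIP, which degrades lipoprotein receptors, and in blood stem and progenitor cells the pumps ABCA1 and ABCG1 are known to restrain proliferation.

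The WT libraries held 10191354 to 13189329 counts, and the KO libraries 12020128 to 14590844. Uqcrfs1 stood at 61.0 to 123 CPM (counts scaled to a common TMM library size) in WT and at 3.08 to 4.33 CPM in KO, so each library matched its label by this gene. All 10 stem and progenitor markers were at 1 CPM or more in every library, with Kit at 529 CPM or more, and their sum was 2290 to 2750 CPM in WT and 1920 to 2090 CPM in KO. Summed erythroid and granulocyte markers were also higher in every WT library than in any KO library. They ran from 305 to 589 CPM in WT and from 66.2 to 107 CPM in KO for 12 erythroid markers (1 without a row, and Hba-a1 at 0 in every library). For 10 granulocyte markers the ranges were 402 to 556 CPM and 228 to 262 CPM, with none at 0 in every library. The 11 hepatoblast markers, 1 of them at 1 CPM or more in every library, overlapped between groups. They summed to 30.4 to 87.0 CPM in WT and 7.5 to 47.6 CPM in KO. Libraries also differed in sex-linked transcripts. KO replicate 2 had 0 counts of Xist, against 5842 to 16004 in the other 5 libraries, and 2358 counts of 4 Y-linked genes (Ddx3y, Eif2s3y, Kdm5d and Uty). The other KO libraries held 0 (replicate 1) and 604 (replicate 3) counts of these 4, and WT replicates 1 to 3 held 13, 836 and 1022. WT replicates 2 and 3 and KO replicate 3 thus held Xist and Y-linked counts together, as a mix of female and male cells would. The labels do not say whether embryos were pooled. Of the genes described, Nsdhl and Ebp are on the X chromosome, and without KO replicate 2 their log2 fold changes of -1.64 and -0.62 were -1.80 and -0.35. Leaving out that library lowered the number of genes called from 1391 to 712. WT replicate 3 stood apart by its macrophage markers, given below with the export genes. The part of these cells in the results was not tested, and in bulk RNA fewer cells of a type and less RNA per cell cannot be told apart.

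In KO, the transcripts of 7 cholesterol enzymes fell, from 2.07-fold for Cyp51 to 3.65-fold for Idi1. Summed over the 8 fatty acid synthesis genes, the level averaged 1620 ± 113 CPM across the WT libraries and 1570 ± 127 CPM across the KO libraries (SD of 3). This sum joins moves in both directions: 6 of the 8 had a negative log2 fold change, while mean Acaca went from 144 CPM in WT to 213 CPM in KO. Of the 39 genes, 38 passed the filter on low counts and were tested, and 9 fell and 1 rose at a Benjamini-Hochberg adjusted p under 0.05 (edgeR). That is 23.7% lower and 2.63% higher, where 4.99% of all 12204 genes tested were lower and 6.41% higher. The median log2 fold change of the 38 genes was -0.48, against -0.02 over all genes tested. Cholesterol enzymes gave 7 of the 9 falls, SREBP regulators 1 and sterol traffic 1, and the single rise was in fatty acid synthesis. The gene not tested was Hmgcs1, of the step from acetoacetyl-CoA to HMG-CoA, which is listed at 0 in every library in both deposited tables. Whether it had no reads or was not counted is not known, and it adds 0 to each sum below. The heat map of all 38 tested genes sets these groups under each other.

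**Figure D1:**
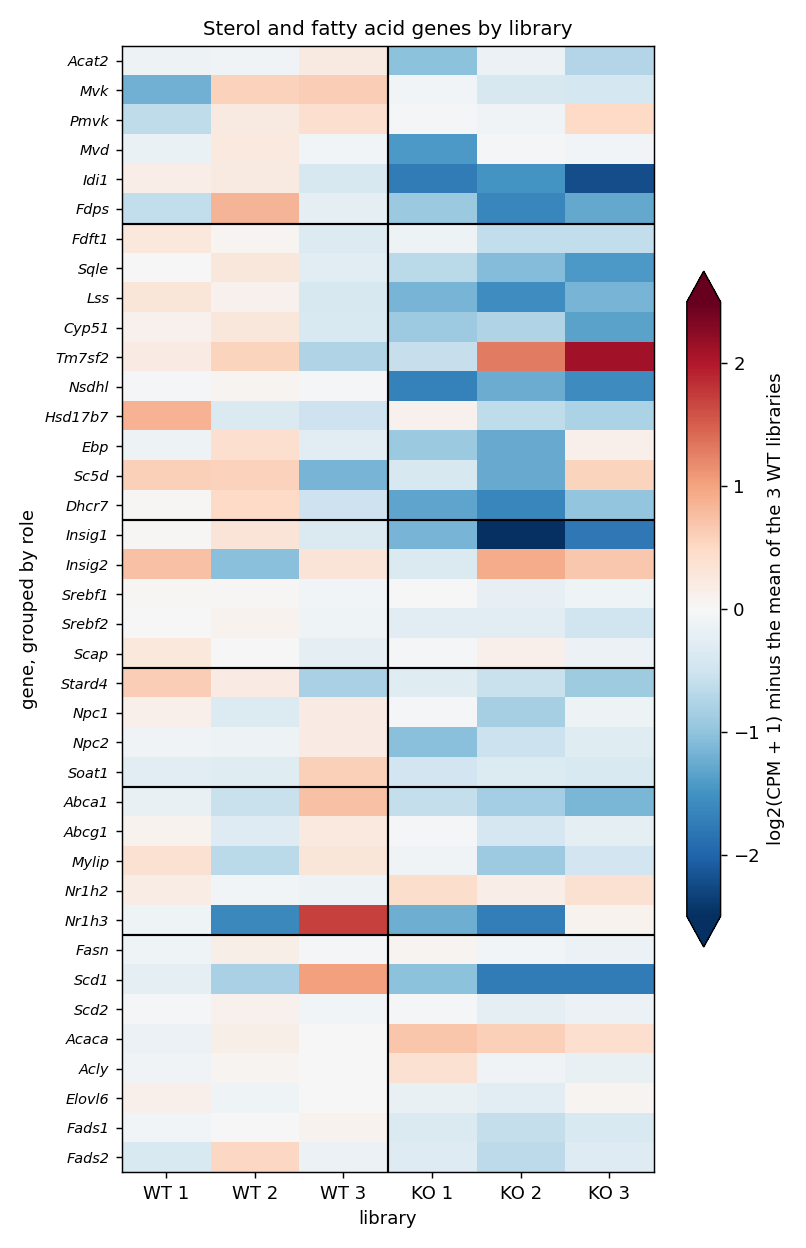
Heat map of 38 genes (rows, grouped by role from mevalonate enzymes at the top to fatty acid synthesis at the bottom) in 3 WT and 3 KO libraries (columns), with colour showing log2(CPM + 1) minus the mean of the 3 WT libraries. Blue runs through the KO columns of Idi1, Lss, Nsdhl, Dhcr7 and Insig1, while Fasn, Scd2 and Acly stay near white and Acaca is red in all 3 KO libraries.

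Among the 7 enzymes from acetyl-CoA to farnesyl diphosphate, 2 fell and 0 rose. Idi1, the isomerase that makes dimethylallyl diphosphate, had 67.3, 70.9 and 45.6 CPM in WT replicates 1 to 3 and 17.2, 20.8 and 12.2 CPM in KO replicates 1 to 3. The highest KO library lay below the lowest WT library by more than the range within KO. The log2 fold change was -1.87 with a standard error (SE) of 0.25 (adjusted p = 5.82e-05), or 3.65-fold lower. Fdps, the synthase that joins these units into farnesyl diphosphate, had 26.9, 76.7 and 35.5 CPM in WT and 21.7, 12.9 and 16.8 CPM in KO. WT replicate 2 stood far above the rest, and the groups did not overlap. Fdps fell by 1.44 on the log2 scale (SE 0.34, adjusted p = 0.0118). Its call was lost without WT replicate 2 (log2 fold change -0.86, adjusted p = 0.111), KO replicate 2 (-1.26, adjusted p = 0.0826) or KO replicate 3 (-1.42, adjusted p = 0.0754).

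The other 4 tested enzymes of this stretch did not pass. Acat2, the thiolase that makes acetoacetyl-CoA, went from 24.1 ± 3.64 CPM in WT to 15.6 ± 5.21 CPM in KO (SD, n = 3 each). Its KO libraries all lay below its WT libraries, and its log2 fold change of -0.63 had a 95% interval of -1.30 to 0.04. Mvk and Pmvk, the kinases that phosphorylate mevalonate, and Mvd, which decarboxylates the product, had log2 fold changes of -0.56, 0.09 and -0.48 with overlapping groups. These kinases and Mvd were low, with WT means of 5.47 to 12.1 CPM, and the narrowest of their 95% intervals was -0.77 to 0.95, for Pmvk.

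Of the 10 enzymes from squalene to cholesterol, 5 fell and 0 rose. Sqle, the squalene epoxidase, had 38.2, 47.3 and 31.7 CPM in WT and 23.7, 17.7 and 13.6 CPM in KO. Lss, which closes the sterol rings, had 22.7, 19.6 and 13.6 CPM in WT and 7.57, 5.59 and 7.57 CPM in KO. Cyp51, the lanosterol demethylase, had 36.4, 40.9 and 25.4 CPM in WT and 17.5, 19.5 and 12.6 CPM in KO. For all 3 genes the groups did not overlap, and WT replicate 3 was the lowest WT library. Nsdhl, a dehydrogenase that removes sterol methyl groups, had 17.6, 19.3 and 18.0 CPM in WT and 4.98, 7.12 and 5.52 CPM in KO. Dhcr7, which reduces the last double bond before cholesterol, had 30.7, 42.8 and 20.7 CPM in WT and 11.4, 9.05 and 14.7 CPM in KO. Nsdhl was the tightest of these genes within WT, with an SD of 0.85 around a mean of 18.3 CPM.

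On the log2 scale, Nsdhl changed by -1.64 (SE 0.40, adjusted p = 0.0105) and Dhcr7 by -1.42 (SE 0.33, adjusted p = 0.00767). Lss changed by -1.43 (SE 0.40, adjusted p = 0.0229), Sqle by -1.09 (SE 0.28, adjusted p = 0.0132) and Cyp51 by -1.05 (SE 0.29, adjusted p = 0.0212). Idi1 and Nsdhl were the 2 enzymes whose call held whichever single library was left out. Dhcr7 lost it without WT replicate 2 (-1.13, adjusted p = 0.0656). Sqle lost it without WT replicate 2 (-0.93, adjusted p = 0.0706), KO replicate 2 (-1.07, adjusted p = 0.0579) or KO replicate 3 (-0.92, adjusted p = 0.076). Cyp51 lost it without WT replicate 1 (-1.0, adjusted p = 0.0699), WT replicate 2 (-0.90, adjusted p = 0.0975) or KO replicate 3 (-0.89, adjusted p = 0.11). Lss lost it without WT replicate 1 (-1.26, adjusted p = 0.11), WT replicate 2 (-1.39, adjusted p = 0.0664), KO replicate 2 (-1.29, adjusted p = 0.103) or KO replicate 3 (-1.49, adjusted p = 0.0609). The direction held in each of these fits.

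The remaining 5 enzymes of this stretch overlapped between groups and did not pass. Fdft1, squalene synthase, stood at 36.6 ± 7.78 CPM in WT and 26.5 ± 5.66 CPM in KO, with a log2 fold change of -0.47 (95% interval -1.0 to 0.07). Ebp, the sterol isomerase, was within its WT range in KO replicate 3, at 26.3 CPM, and below that range in the other 2 KO libraries. Sc5d, a desaturase, varied from 4.70 to 18.3 CPM in WT and from 4.39 to 17.9 CPM in KO. Hsd17b7, a sterol ketoreductase, was low in every library, with 2.21 to 9.22 CPM. Tm7sf2, a sterol reductase, had 11, 18 and 1 counts in WT and 3, 52 and 87 counts in KO, and its log2 fold change of 1.88 had an interval of -0.80 to 4.57.

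Over the 16 tested cholesterol enzymes 7 fell, or 43.8%, with a median log2 fold change of -0.64, and 14 of the 16 had a negative value. Groups did not overlap for 8 of the 16, all with KO below WT, against 14.5% of all genes tested in that direction. Summed over the 17 enzymes, the level was 371, 468 and 310 CPM in WT and 196, 180 and 202 CPM in KO. The KO libraries were thus close together at 193 ± 11.5 CPM, and the WT libraries spread more widely at 383 ± 79.7 CPM (SD, n = 3 each). Without WT replicate 2, the highest of these libraries, 2 enzymes were lower, and without KO replicate 2 or KO replicate 3 there were 4 and 3. With limma on log2(RPKM + 1), the members that kept a call were Idi1, Nsdhl and Insig1. The fold changes with their intervals are drawn gene by gene.

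**Figure D2:**
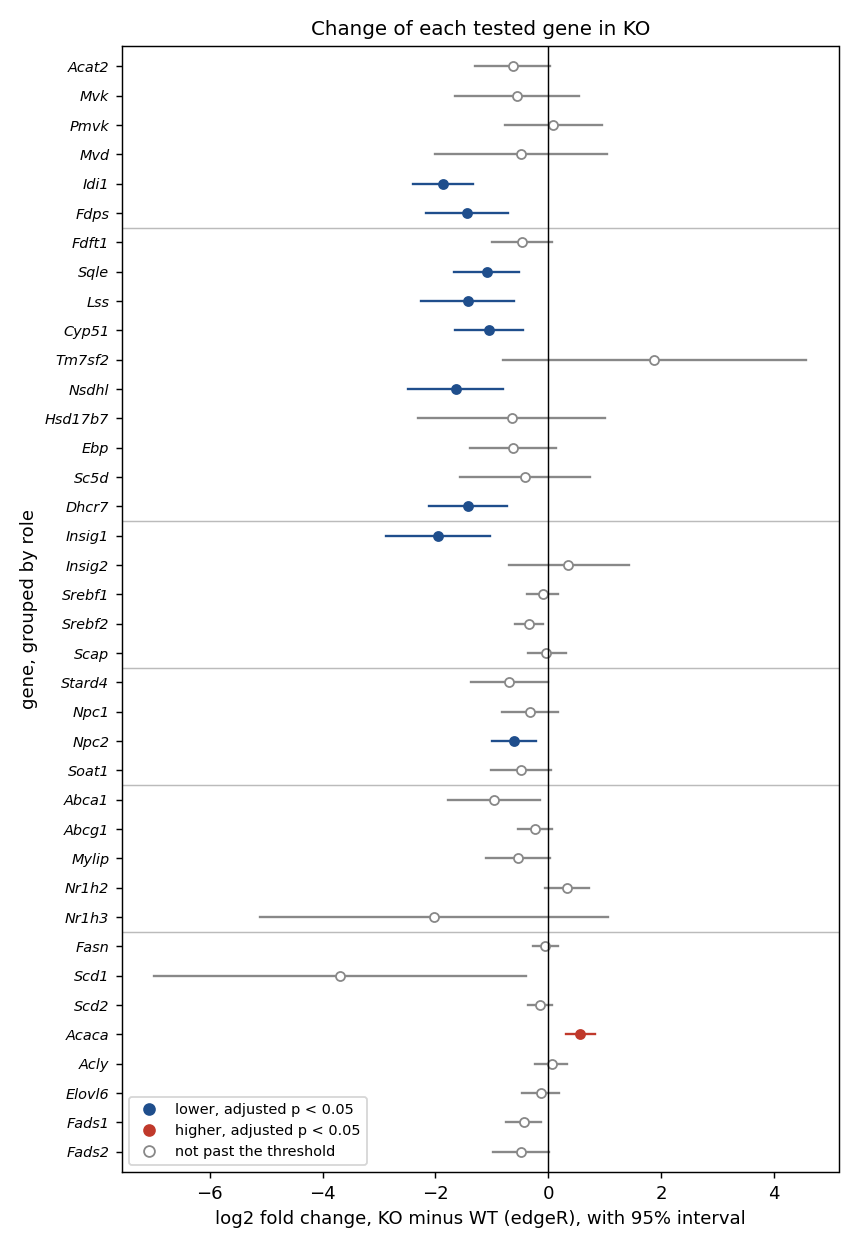
Log2 fold change of KO minus WT (points, x axis) with 95% intervals (lines) for 38 genes grouped by role as in the heat map, with filled points for genes past the threshold. Enzymes from Idi1 (-1.87) to Cyp51 (-1.05) carry filled blue points, Acaca at 0.57 carries the single red point, and Scd1, Nr1h3 and Tm7sf2 have the widest intervals.

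The promoters of the genes that fell are shown because SREBP factors are known to act at such promoters together with NF-Y, which binds CCAAT. RefSeq promoter entries (GRCm38.p6) were matched for 30 of the 39 genes. There was none for Fdps, Fdft1, Sqle, Stard4, Npc1, Abcg1, Scd1, Scd2 and Fads1. The 250 bases before each annotated start were searched on both strands. The windows printed lie at chr13:8885356-8885605 (plus strand) for Idi1, chr10:76531355-76531604 (plus strand) for Lss, chr5:4104698-4104947 (minus strand) for Cyp51, chrX:72918271-72918520 (plus strand) for Nsdhl, chr5:28071162-28071411 (plus strand) for Insig1. These 5 genes fell and have 1 annotated start each, and capitals mark CCAAT or its reverse complement ATTGG.
Idi1: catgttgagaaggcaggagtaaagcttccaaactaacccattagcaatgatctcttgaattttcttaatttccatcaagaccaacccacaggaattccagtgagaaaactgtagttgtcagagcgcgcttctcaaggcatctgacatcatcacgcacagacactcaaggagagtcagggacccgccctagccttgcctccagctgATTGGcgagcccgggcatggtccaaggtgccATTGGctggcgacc
Lss: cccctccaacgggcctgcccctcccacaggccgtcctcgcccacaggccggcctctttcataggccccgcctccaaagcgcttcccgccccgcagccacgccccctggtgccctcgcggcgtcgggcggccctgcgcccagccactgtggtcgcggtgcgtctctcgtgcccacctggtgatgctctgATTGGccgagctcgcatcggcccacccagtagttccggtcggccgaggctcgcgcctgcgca
Cyp51: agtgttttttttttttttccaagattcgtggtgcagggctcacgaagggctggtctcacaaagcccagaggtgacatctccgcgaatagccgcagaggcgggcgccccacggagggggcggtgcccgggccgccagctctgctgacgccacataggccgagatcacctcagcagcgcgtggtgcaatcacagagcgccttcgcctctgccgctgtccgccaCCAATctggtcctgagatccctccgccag
Nsdhl: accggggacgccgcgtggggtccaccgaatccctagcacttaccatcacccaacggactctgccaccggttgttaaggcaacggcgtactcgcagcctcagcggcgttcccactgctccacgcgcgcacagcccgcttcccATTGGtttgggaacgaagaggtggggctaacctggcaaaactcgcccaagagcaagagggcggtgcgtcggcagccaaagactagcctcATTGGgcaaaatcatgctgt
Insig1: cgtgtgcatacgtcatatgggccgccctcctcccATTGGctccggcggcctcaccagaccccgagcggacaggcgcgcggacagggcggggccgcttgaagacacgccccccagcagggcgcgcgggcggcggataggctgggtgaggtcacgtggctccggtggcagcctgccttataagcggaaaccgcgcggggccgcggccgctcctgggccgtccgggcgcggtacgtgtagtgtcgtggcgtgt
Idi1 has ATTGG 45 and 14 bases before the start, Nsdhl 109 and 20 bases before it, Lss 62 bases and Insig1 216 bases before it. Cyp51 has CCAAT 29 bases before its start.

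All 7 genes that fell and had a window held CCAAT on either strand, as did 13 of 21 genes that did not pass. By role it was 13 of 14 cholesterol enzymes, 4 of 5 SREBP regulators and 1 of 5 fatty acid genes. Tested cholesterol enzymes that did not pass also held CCAAT, all with a window but Acat2, so within the enzymes it did not set apart those that fell. Among genes tested that had an entry, the share was 40.6%. The GC box GGGCGG, which holds the letters that SP1 binds, was found for 13 of 14 cholesterol enzymes and for 64.7% of genes tested that had an entry. The SREBP site TCACNCCAC was in 1 member's window, that of Hmgcs1, 137 bases before the start, and was found for 1.26% of such genes. An E-box CACGTG was in 6 of the 30 and in 10.0%. The LXR half-site AGGTCA was in 5 of the 30 and in 12.7%, and its direct repeat with 4 bases between was in none of the 30 and in 0 of 9211 genes tested with an entry. These are exact matches of letters and say nothing of binding. A site that departs from the letters searched is not counted, so a window without a match may still hold a variant site. The map of matches shows where they lie.

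**Figure D3:**
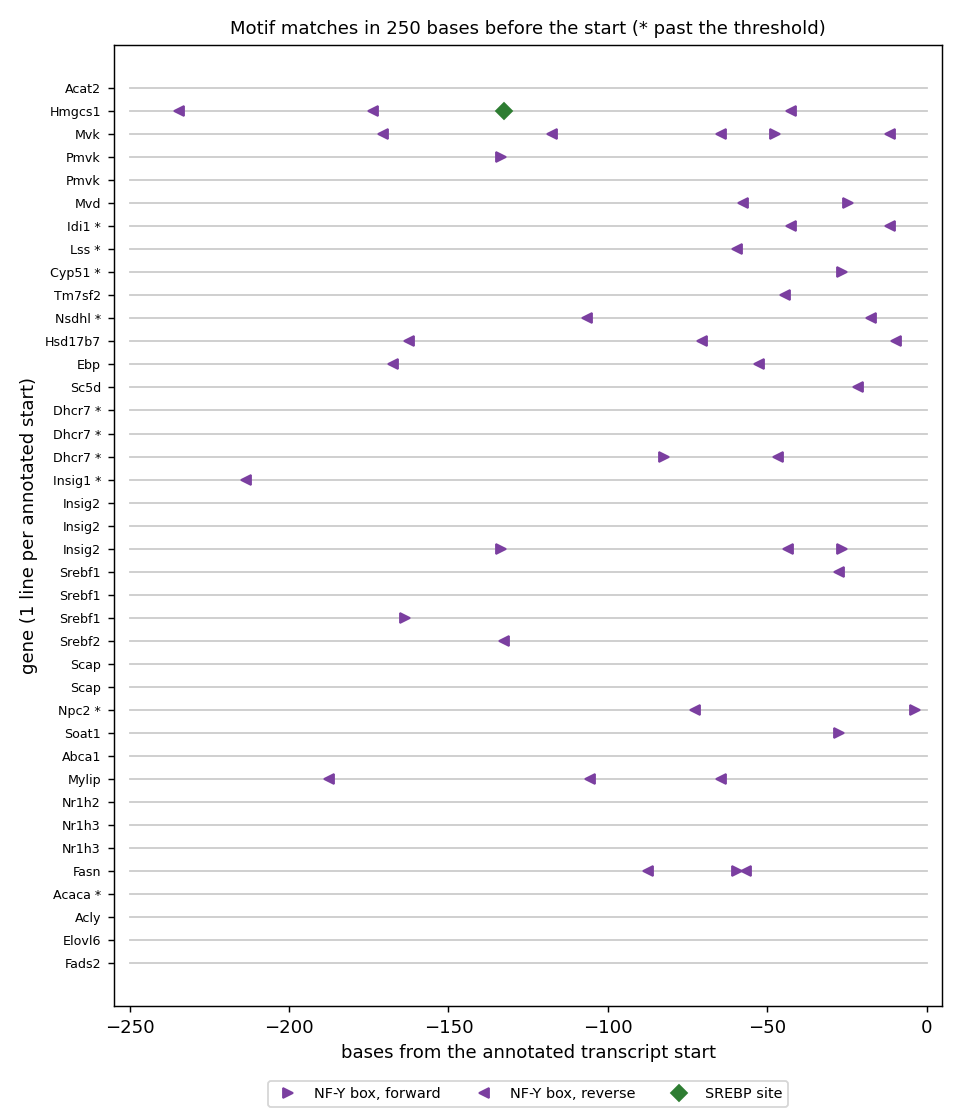
Positions of CCAAT matches (purple, pointing by strand) and of the TCACNCCAC match (green) in the 250 bases before each annotated start (x axis, bases from the start) of 30 genes, 1 line per start, with asterisks on genes past the threshold. Most cholesterol enzyme lines carry a match within the last 100 bases, and Fasn is the 1 fatty acid gene with any.

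The regulators themselves differed in how they behaved. Insig1, whose product holds SCAP back when sterol is high, had 24.6, 30.1 and 18.5 CPM in WT and 10.2, 2.53 and 6.23 CPM in KO. Groups did not overlap, and KO replicate 2 was the lowest library. Insig1 fell by 1.95 on the log2 scale (SE 0.44, adjusted p = 0.00615), or 3.86-fold, and its call held without any 1 library (-2.48 to -1.57, highest adjusted p = 0.0352). Its paralogue Insig2 had 14.6, 3.54 and 10.8 CPM in WT and 6.35, 16.9 and 14.0 CPM in KO. WT replicate 2 and KO replicate 1 were the low libraries, the groups overlapped, and the log2 fold change of 0.36 had an interval of -0.70 to 1.43.

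The 2 SREBP genes and Scap did not pass. Srebf2, whose product is the main activator of sterol genes, had 234, 247 and 216 CPM in WT and 194, 192 and 165 CPM in KO. All KO libraries were below all WT libraries, with a log2 fold change of -0.34 (95% interval -0.58 to -0.09) that did not pass (adjusted p = 0.0695). It passed with DESeq2 (adjusted p = 0.0404) and when length and GC content of transcripts entered as offsets, where the value was -0.57 (adjusted p = 0.00461). Srebf1, whose products favour fatty acid genes, had 132, 133 and 124 CPM in WT and 129, 113 and 121 CPM in KO. Scap, the escort, had 118, 98.0 and 82.6 CPM in WT and 96.7, 107 and 89.0 CPM in KO. Both overlapped between groups, with intervals of -0.38 to 0.17 and -0.36 to 0.31.

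Of 4 genes of sterol traffic and storage, 1 passed. Npc2, the soluble protein that carries cholesterol out of lysosomes, had 94.2, 91.8 and 115 CPM in WT and 48.1, 68.2 and 81.1 CPM in KO. The groups did not overlap, and WT replicate 3 was the highest library. Npc2 fell by 0.61 on the log2 scale (SE 0.19, adjusted p = 0.0371). Its call was lost without WT replicate 1 (-0.65, adjusted p = 0.0599), WT replicate 3 (-0.50, adjusted p = 0.133), KO replicate 1 (-0.43, adjusted p = 0.163) or KO replicate 2 (-0.64, adjusted p = 0.103), and with library totals as the only scaling (-0.55, adjusted p = 0.0762). Npc1, its membrane partner, was at 48.2 ± 9.35 CPM in WT and 38.6 ± 10.6 CPM in KO. Stard4, a cytosolic sterol carrier, was at 70.6 ± 32 and 43.7 ± 9.16 CPM, and Soat1, which esterifies cholesterol, at 44.9 ± 17.9 and 32.3 ± 1.57 CPM (SD, n = 3 each). Npc1 and Stard4 overlapped between groups, and Soat1 did not.

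WT replicate 3 stood apart for both of the last genes, in opposite directions. Stard4 was lowest in WT there, at 36.5 CPM against 99.8 and 75.5 CPM, and without that library its log2 fold change of -0.69 became -1.0 (adjusted p = 0.0045). Soat1 was highest there, at 65.6 CPM against 34.9 and 34.4 CPM, and without it the value of -0.48 became -0.10 (adjusted p = 0.871).

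None of the 5 genes of LXR signalling and export passed in edgeR, and at an unadjusted p under 0.05 there was 1, Abca1. DESeq2 called 0 of the 5 and limma-voom 1. Abca1, the pump that loads cholesterol onto apolipoproteins, had 113, 87.6 and 215 CPM in WT and 84.3, 71.0 and 58.0 CPM in KO. The KO libraries all lay below WT, and WT replicate 3 was far above the others. Its log2 fold change was -0.96 (95% interval -1.78 to -0.15, adjusted p = 0.135), and -0.50 without WT replicate 3 (adjusted p = 0.114). It passed without WT replicate 2 (-1.21, adjusted p = 0.00448), with limma-voom (-0.90, adjusted p = 0.027) and with no filter on low counts (-0.96, adjusted p = 2.06e-05).

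Abcg1, the pump that hands cholesterol to lipoprotein particles, had 207, 156 and 230 CPM in WT and 192, 146 and 165 CPM in KO. Mylip, the ubiquitin ligase for lipoprotein receptors, had 74.8, 35.4 and 70.3 CPM in WT and 54.0, 29.9 and 40.6 CPM in KO. Both overlapped, with log2 fold changes of -0.23 and -0.54, and in both groups replicate 2 had the lowest level. Without WT replicate 2, Mylip stood at -0.81 (adjusted p = 0.0334). Nr1h2, the broadly expressed LXR beta, had 55.1, 45.7 and 43.9 CPM in WT and 65.2, 53.7 and 63.0 CPM in KO, with an interval of -0.06 to 0.72. Nr1h3, LXR alpha, had 21, 1 and 127 counts in WT and 6, 0 and 32 counts in KO. Its log2 fold change of -2.02 became -0.16 without WT replicate 3.

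The summed level of 10 macrophage markers, none of which passed, was 157, 63.0 and 924 CPM in WT and 63.5, 24.8 and 45.7 CPM in KO, and none of the 10 was at 0 in every library. Abca1, Abcg1 and Nr1h3 were highest in the same library, WT replicate 3, while Mylip was highest in WT replicate 1 and Nr1h2 was lowest in WT replicate 3. Endothelial markers, 7 genes, summed to 370, 206 and 1030 CPM in WT and 125 to 172 CPM in KO. In the bar plot the library with the highest macrophage sum is also the one with the highest sum of export genes, and it has the lowest sum of cholesterol enzymes in WT. Without WT replicate 3, 7 cholesterol enzymes were lower, as with all libraries. The part of macrophages or endothelial cells in these calls was not tested.

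**Figure D4:**
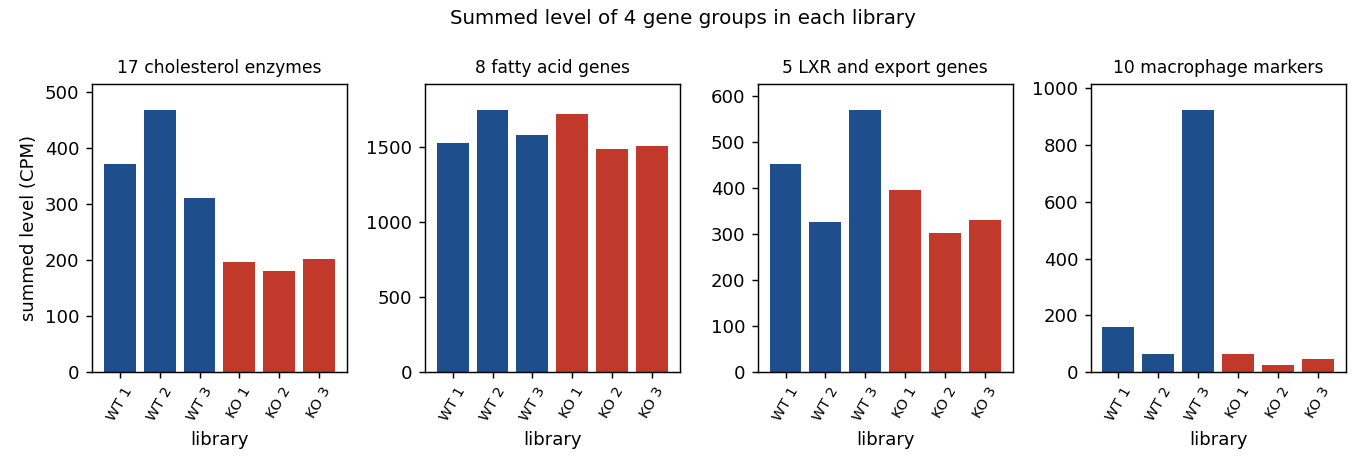
Summed level in CPM (y axis, from 0) of 4 gene groups in each of the 3 WT (blue) and 3 KO (red) libraries. The cholesterol enzymes stand at 310 to 468 CPM in WT and 180 to 202 CPM in KO, the fatty acid genes at 1490 to 1750 CPM throughout, and the macrophage markers peak at 924 CPM in WT replicate 3.

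Of the 8 genes of fatty acid synthesis 1 rose and 0 fell, with a median log2 fold change of -0.14. At an unadjusted p under 0.05, Scd1 and Fads1 were lower, and DESeq2 called 1 of the 8 lower, Fads1. Acaca, acetyl-CoA carboxylase, which commits acetyl-CoA to fatty acids, had 129, 158 and 144 CPM in WT and 231, 217 and 192 CPM in KO. All KO libraries lay above all WT libraries. Acaca rose by 0.57 on the log2 scale (SE 0.13, adjusted p = 0.00495), or 1.49-fold, and the call held without any 1 library (0.50 to 0.65, highest adjusted p = 0.0332) but not with limma on log2(RPKM + 1) (0.56, adjusted p = 0.0932).

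Fasn, the synthase that builds palmitate, had 346, 416 and 364 CPM in WT and 391, 359 and 340 CPM in KO, with an interval of -0.27 to 0.18. Scd2, a stearoyl-CoA desaturase, had 603, 671 and 592 CPM in WT and 599, 522 and 559 CPM in KO, with an interval of -0.36 to 0.06. Its paralogue Scd1 had few reads, with 19, 10 and 76 counts in WT and 9, 0 and 0 counts in KO. The groups of Scd1 did not overlap, and its log2 fold change of -3.69 did not pass (adjusted p = 0.145). It was -2.65 without WT replicate 3 and -8.16 without KO replicate 1 (adjusted p = 0.0484), where both KO libraries are at 0, so that this value depends on the prior count. Scd1 and Scd2 are similar in sequence, and the labels do not say how reads with several matches were counted.

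The remaining 4 genes did not pass. Acly, which makes cytosolic acetyl-CoA for both pathways, was at 216 ± 12.4 CPM in WT and 225 ± 49.7 CPM in KO, with KO replicate 1 highest at 282 CPM. Elovl6, an elongase, was at 89.2 ± 7.06 and 81.6 ± 10.2 CPM. The desaturases of polyunsaturated fatty acids, Fads1 and Fads2, were at 120 ± 7.12 and 88.8 ± 7.87 CPM and at 53.5 ± 18.3 and 38.3 ± 4.96 CPM (SD, n = 3 each). Fads1 did not overlap between groups (log2 fold change -0.43, adjusted p = 0.0564) and passed with DESeq2 (adjusted p = 0.0304) and with length and GC offsets (-0.49, adjusted p = 0.0286).

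Set against each other, the summed cholesterol enzymes were 24.2%, 26.7% and 19.5% of the summed fatty acid genes in WT and 11.4%, 12.1% and 13.4% in KO. The lowest WT library lay above the highest KO library in this ratio, which is given without a test. Both sums are in CPM without regard to length. The plot of 12 genes by library shows both patterns.

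**Figure D5:**
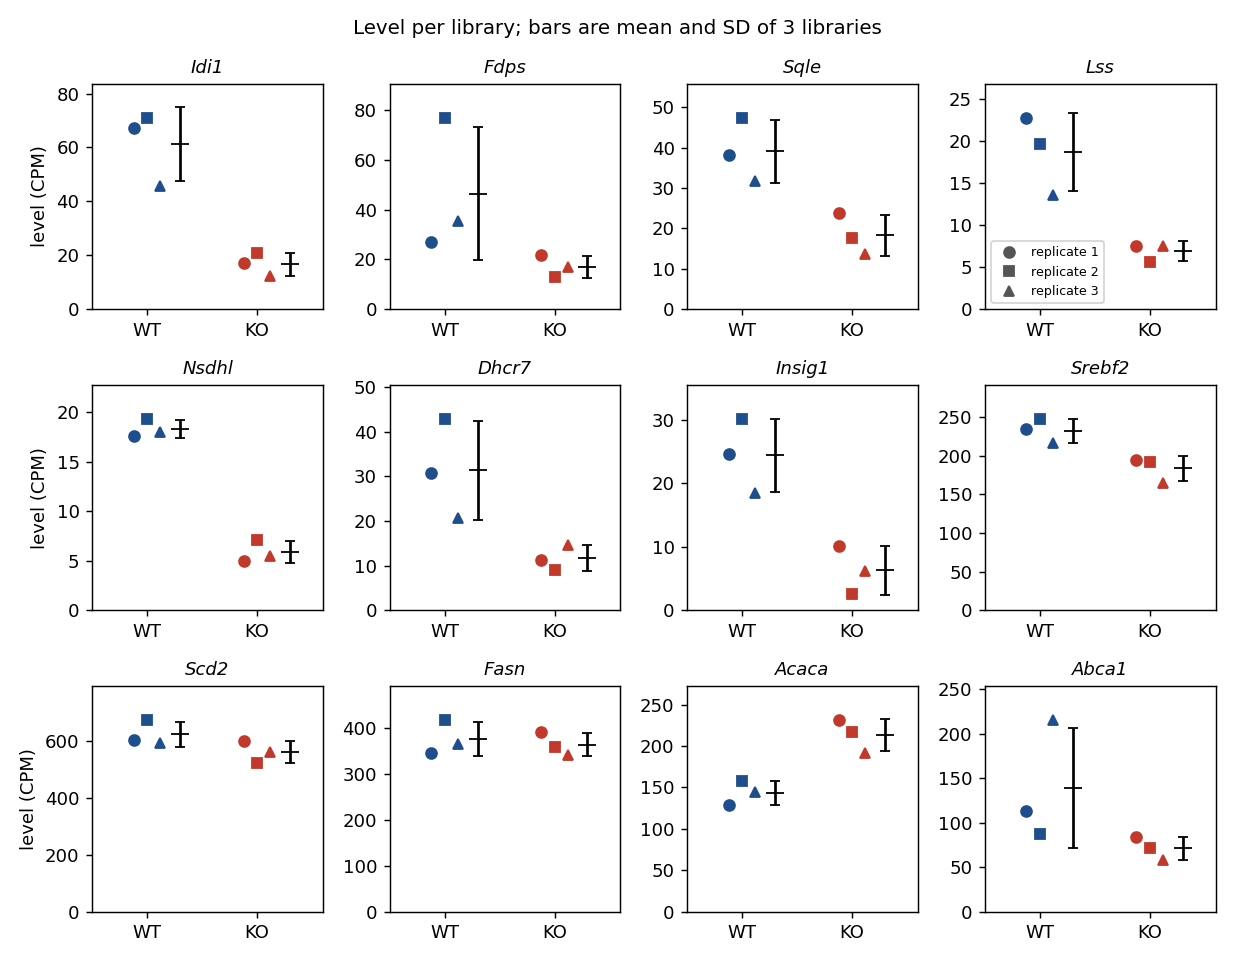
Level in CPM (y axes, from 0) of 12 genes in 3 WT (blue) and 3 KO (red) libraries, with symbols for the replicate and black bars for the mean and SD of 3 libraries. From Idi1 to Insig1 every KO library is below every WT library, Fasn and Scd2 overlap, and the 3 KO libraries of Acaca sit between 192 and 231 CPM, all above WT.

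Compared per length, by the deposited RPKM values, Scd2 had the highest level of the 39 genes at 141 ± 9.18 RPKM in WT and 125 ± 11.4 RPKM in KO (SD, n = 3 each). Acly followed at 40.1 ± 2.19 RPKM in WT, then Srebf2 at 36.7 ± 2.41, Fads2 at 35.0 ± 12.3 and Fads1 at 33.6 ± 2.11 RPKM. Over the WT libraries the range of each of these 4 overlapped that of the next. The highest cholesterol enzymes in WT were Fdps at 23.5 ± 12.2 and Idi1 at 22.7 ± 5.36 RPKM, and in KO they stood at 9.75 ± 2.49 and 6.64 ± 1.87 RPKM. Among tested cholesterol enzymes, Lss, Mvd, Hsd17b7 and Tm7sf2 had a mean below 5 RPKM in WT.

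Of 61 further genes of these pathways, 59 were tested, and 4 fell and 3 rose, or 6.78% and 5.08%. Pooled in this way, the shares are near the 4.99% and 6.41% of all genes tested. By group, 23.1% of tested genes fell among the last sterol steps and SREBP handling, 4.17% among fatty acid and glycerolipid steps and 0% elsewhere. Those that rose were 18.2% of lipid uptake genes and LXR partners, 9.09% of the isoprenoid branches and 0% elsewhere. The groups are small, and the genes below are given for their own values. Among 13 genes of the last sterol steps and of SREBP handling, 3 fell, 1 of them Lbr, which encodes a lamin receptor with sterol reductase activity. Lbr stood at 308, 234 and 283 CPM in WT and 205, 210 and 214 CPM in KO (log2 fold change -0.39, adjusted p = 0.0348). It kept its call without WT replicate 2 and lost it without each other single library (highest adjusted p = 0.157), with library totals as the only scaling (-0.34, adjusted p = 0.0714) and with length and GC offsets (-0.32, adjusted p = 0.0808).

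Among 12 genes of lipid uptake and LXR partners, 2 receptors of the lipoprotein receptor family rose. Vldlr had 9.02, 5.68 and 1.39 CPM in WT and 37.7, 32.2 and 27.0 CPM in KO. Groups were far apart, with a log2 fold change of 2.60 (SE 0.48, adjusted p = 0.00238). Lrp8 had 30.8, 34.7 and 28.8 CPM in WT and 56.2, 74.2 and 47.0 CPM in KO (log2 fold change 0.91, SE 0.22, adjusted p = 0.00902). Lrp8 lost its call without KO replicate 2 (0.72, adjusted p = 0.101).

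Among 25 genes of fatty acid and glycerolipid steps 1 fell, Fabp5, a fatty acid binding protein gene, from 193 ± 5.21 to 129 ± 15.8 CPM (log2 fold change -0.58, adjusted p = 0.00513). Among 11 genes of the isoprenoid branches 1 rose, Rabggtb, a subunit of the transferase that prenylates RAB proteins, from 17.6 ± 6.96 to 50 ± 8.19 CPM (SD, n = 3 each, log2 fold change 1.51, adjusted p = 0.00141). Its introns host small nucleolar RNAs. The other 10 of these genes, among them those that elongate isoprenoids for ubiquinone, had log2 fold changes of -0.57 to 0.83 and did not pass.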

How the data were processed

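RNA was sequenced from 3 WT and 3 KO libraries made with a stranded kit for low input of total RNA, per the labels. The authors deposited raw read counts and RPKM values (reads scaled to transcript length and library size) per gene symbol. Per the submitters' processing notes, TopHat, Cufflinks and the mm9 build were used. The labels give no versions, counter, annotation or strand setting, so reads of overlapping genes cannot be told apart. Deposited RPKM and counts of 1 gene did not always imply 1 length: for Mylip the implied length differed 2.68-fold between libraries.

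Counts were fitted in edgeR 4.0.16 (R 4.3.3) after TMM scaling and filterByExpr, and KO was compared with WT by the quasi-likelihood test with robust dispersion and no covariate. The Benjamini-Hochberg adjustment covered all 12204 tested genes, and the threshold was 0.05. The SE of a log2 fold change was its size divided by the square root of F, and 95% intervals used the fit's degrees of freedom. CPM errors are SD over 3 libraries. Alternatives were other scaling, filters, DESeq2 1.42.0, limma 3.58.1 (voom, and log2(RPKM + 1) for genes with at least 1 RPKM in 3 libraries), a replicate block, offsets for length and GC content of the longest GENCODE M21 transcript (a value for 99.4% of genes tested), and leaving out each library. The fits were also tested on simulated counts with the same dispersion for every gene. That run cannot show how the fits handle the spread of these libraries. Replicate pairs within a group had a chi-square of their counts of 21.7 to 43.1 per degree of freedom, so none was counted as a repeat.

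The genes and lists were chosen with earlier results of these data known. Values per library are given for each of the 39 genes past the threshold, for a set of regulators and for Fasn, Scd1 and Scd2, and other members by means, ranges and counts. Further pathway genes past the threshold may be named, and the rest are counted.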

Additional observations from a re-analysis of the deposited data

How the results depend on the processing

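Of the 10 genes called among the 39, 4 kept the call without any single library (Idi1, Nsdhl, Insig1 and Acaca), 9 in the other settings on counts (all but Npc2), and 2 in every setting run (Idi1 and Nsdhl). Of the 28 tested and not called, 6 passed in at least 1 setting. With limma on log2(RPKM + 1) and log2(RPKM + 0.1), 523 and 469 genes were called in all against 1391, 3 and 2 of the 39 were lower, 0 and 0 were higher, and 2 and 2 cholesterol enzymes were lower. The cause was not tested. Fatty acid genes lower were 1 in place of 0 with DESeq2, 1 with a mean CPM of at least 5, 1 with length and GC offsets and 1 with these and the replicate block. Leaving out 1 library gave 712 to 1263 genes called, 5 to 9 of the 39 lower, 1 higher each time, 2 to 7 cholesterol enzymes lower and 0 to 1 fatty acid genes lower. Same-numbered WT and KO libraries did not deviate together (correlations 0.02, 0.01 and 0.00), so the numbers were not taken as pairs. With the replicate block 1341 genes were called, 9 of the 39 lower and 1 higher, 7 cholesterol enzymes lower and 0 fatty acid genes lower. With 3 libraries a group, low genes such as Nr1h3 (-5.11 to 1.06) and Tm7sf2 (-0.80 to 4.57) have wide intervals that include 0. That of Scd1 (-6.98 to -0.39) is also wide, with an adjusted p of 0.145.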
